A study of Mus musculus with 12 samples.

Results

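The genes described here are the nuclear receptors of mouse liver other than the receptors for glucocorticoid and mineralocorticoid and 4 receptors left out by the selection (Nr1d1, Nr1d2, Nr0b2 and Nr1h4). They were chosen by name alone: a gene entered if its array design name or current symbol belonged to the families Nr0 to Nr6 with a letter from a to h, Ppar, Rxr, Rar, Thr, Ror, Esr, Vdr or Hnf4. The rule matched 41 of the 28786 named genes on the array, with 66 probes. Of these, 39 are receptors. The other 2, Esrp1 and Esrp2, are epithelial splicing regulators whose symbols start with the same letters, and they are kept apart below.

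Livers came from male C57BL/6 mice aged 3 months. All 12 samples carried the liver knockout of GR, the glucocorticoid receptor, so there was no group without the knockout. One group of 4 received PBS, the second group of 4 received AAV-GFP, an adeno-associated virus encoding green fluorescent protein, and the third group of 4 received AAV-hGRB, the same kind of virus encoding human GRβ, a splice form of the receptor whose altered end does not bind glucocorticoids. AAV-hGRB against AAV-GFP sets human GRβ against GFP in the same kind of vector on a GR-deficient liver. AAV-GFP against PBS covers vector and GFP together, and AAV-hGRB against PBS vector and human GRβ together. No group received a vector without a transgene, so effects of the vector, GFP and human GRβ cannot be told apart. Nothing in the sources used here gives the Cre driver of the knockout, the virus dose or the time after injection. Each sample was hybridised to 1 one-colour Agilent array. The labels do not say that each sample was a separate animal, so the tests below measure only how far these samples vary.

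Nuclear receptors are transcription factors that share a zinc-finger domain binding DNA and a ligand-binding domain that exchanges corepressors for coactivators. In liver, PPARα governs fatty acid oxidation, LXR governs sterol and lipid synthesis, and HNF4α maintains hepatocyte identity, while most of the lipid-sensing receptors bind DNA as heterodimers with an RXR partner. The NR4A receptors have no established ligand, and their genes are switched on quickly by cAMP and other acute stimuli.

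The promoters of Nr4a1 and Nr4a2 are shown because these 2 genes had the lowest p-values of the receptors in the comparison of AAV-GFP with PBS. Each sequence holds the 250 bases upstream of a RefSeq transcription start in assembly GRCm38.p6, read 5′ to 3′ on the strand of the gene (Nr4a1 at chr15:101266596-101266845 on the plus strand, Nr4a2 at chr2:57124004-57124253 on the minus strand). Capitals mark the core of the cAMP response element, TGACG or its complement CGTCA.
Nr4a1: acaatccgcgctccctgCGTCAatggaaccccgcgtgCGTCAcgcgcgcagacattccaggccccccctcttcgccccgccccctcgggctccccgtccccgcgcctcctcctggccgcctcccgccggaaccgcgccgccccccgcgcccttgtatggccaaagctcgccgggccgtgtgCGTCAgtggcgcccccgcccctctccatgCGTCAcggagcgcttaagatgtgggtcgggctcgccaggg
Nr4a2: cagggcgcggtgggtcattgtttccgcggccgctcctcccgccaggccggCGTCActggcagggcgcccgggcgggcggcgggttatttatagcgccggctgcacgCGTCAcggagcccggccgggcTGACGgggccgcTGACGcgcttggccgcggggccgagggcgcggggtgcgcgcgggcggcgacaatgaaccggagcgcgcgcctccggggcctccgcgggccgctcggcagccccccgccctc
Each held 4 such cores, counted on both strands with overlaps allowed, and starting at −233, −213, −69 and −40 for Nr4a1 and at −200, −144, −123 and −111 for Nr4a2, where −1 is the last base before the start. At least 1 core was present in 17.8% of all 32851 promoters of this length and in 13 of the 56 promoters of the 35 receptor genes listed in the table (23.2%). At least 4 were present in 45 of all promoters (0.137%) and in 3 of the 56, which belong to Nr4a1, Nr4a2 and Nr4a3. The nuclear receptor core motif AGGTCA or TGACCT was absent from both windows and present in 14.0% of all promoters and 16.1% of the receptor promoters. These matches are descriptions of letters, and binding was not measured.

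Between 23997 and 29034 of the 43379 spots that were not controls lay well above background on an array. The 75th percentile of log2 intensity ran from 7.78 on the dimmest array, AAV-GFP replicate 3, to 9.30. That dimmest array held the highest level of 10 of the 30 receptors and splicing factors tested and the lowest of 4. Where a difference moves by over 1.5 times when a sample is left out, the range over the left-out samples (leave-one-out range) or the moved value is given. This covers only AAV-hGRB minus AAV-GFP for 10 well-known liver receptors, and each comparison for its 5 genes of lowest p. Other differences carry no such range and may move as far. Of the 4 Nr3c1 probes, the gene the knockout targets, 3 were well above background on all 12 arrays and 1 on 5. The brightest ranged from 0.27 to 0.58 in AAV-hGRB, 0.05 to 0.48 in AAV-GFP and 0.14 to 0.49 in PBS. All 3 groups carry the knockout and whether these probes lie in the deleted part is not given, so they do not check the labels. Levels here and below are log2 intensities from which the 75th percentile of the array was subtracted, so 0 marks a spot as bright as that percentile, and levels of different probes are not comparable. Hepatocyte markers were well above background in all groups, with a summed level (log2 of the summed linear values) of 10.95 to 11.29, 11.16 to 11.45 and 10.89 to 11.39 in AAV-hGRB, AAV-GFP and PBS. In whole liver, fewer cells of a type and less RNA per cell cannot be told apart.

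Most receptors were measurable. Of the 41 genes, 28 were well above background on all 12 arrays through their standing probe, the one of highest mean level. No standing probe was saturated on any array. A probe entered the test if it was well above background on at least 4 arrays, which 47 of the 66 probes and 30 of the 41 genes did, 29 of them receptors. Among the 30, Vdr (vitamin D receptor) passed on 7 arrays and Esrrb on 6. The 11 genes not tested were Esr2, Esrp1, Nr0b1, Nr1h5, Nr2e1, Nr2e3, Nr2f1, Nr4a3, Ppard, Rara and Rorb. Of these, 7 were on no array well above background, namely Esr2, Esrp1, Nr2e1, Nr2e3, Nr2f1, Nr4a3 and Rorb.

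No receptor passed the threshold of adjusted p = 0.05 in any of the 3 comparisons, by limma with Benjamini-Hochberg adjustment over 26592 probes. No probe of the array did either, so the background was 0% called for the transgene against the vector, for the vector against PBS and for the transgene against PBS. With array weights, 67 probes passed in the last of these, and still 0 matched genes. The lowest limma adjusted p of any tested probe of these genes was 0.998, 0.999 and 0.837 in that order, the last for the second Nr2c2 probe. Unadjusted limma p under 0.05 was reached by 2 of 30 genes, against 892 probes of the array (3.35%), for AAV-hGRB against AAV-GFP, by 2 of 30 against 448 (1.68%) for AAV-GFP against PBS, and by 0 of 30 against 1553 (5.84%) for AAV-hGRB against PBS. Groups did not overlap in 1, 0 and 1 of the 30 genes, against 2.98%, 0.94% and 4.59% of all probes. The first was Nr4a1, and the last was the splicing regulator Esrp2, which is not a receptor.

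Small changes were the rule. The median change of the 30 genes was −0.13 for AAV-hGRB minus AAV-GFP, 0.09 for AAV-GFP minus PBS and −0.07 for AAV-hGRB minus PBS, against −0.05, 0.00 and −0.06 over all probes tested. In those comparisons 11, 20 and 12 genes had higher means and 19, 10 and 18 lower means. The first and second comparisons share the AAV-GFP samples, the second and the last share PBS, and the first and the last share AAV-hGRB, so their values are not independent. The median standard error was 0.28, and the 95% interval lay within 1 log2 unit of 0 for 21, 22 and 21 of the 30 genes. For the remaining genes the interval reached past that size.

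**Figure D1:**
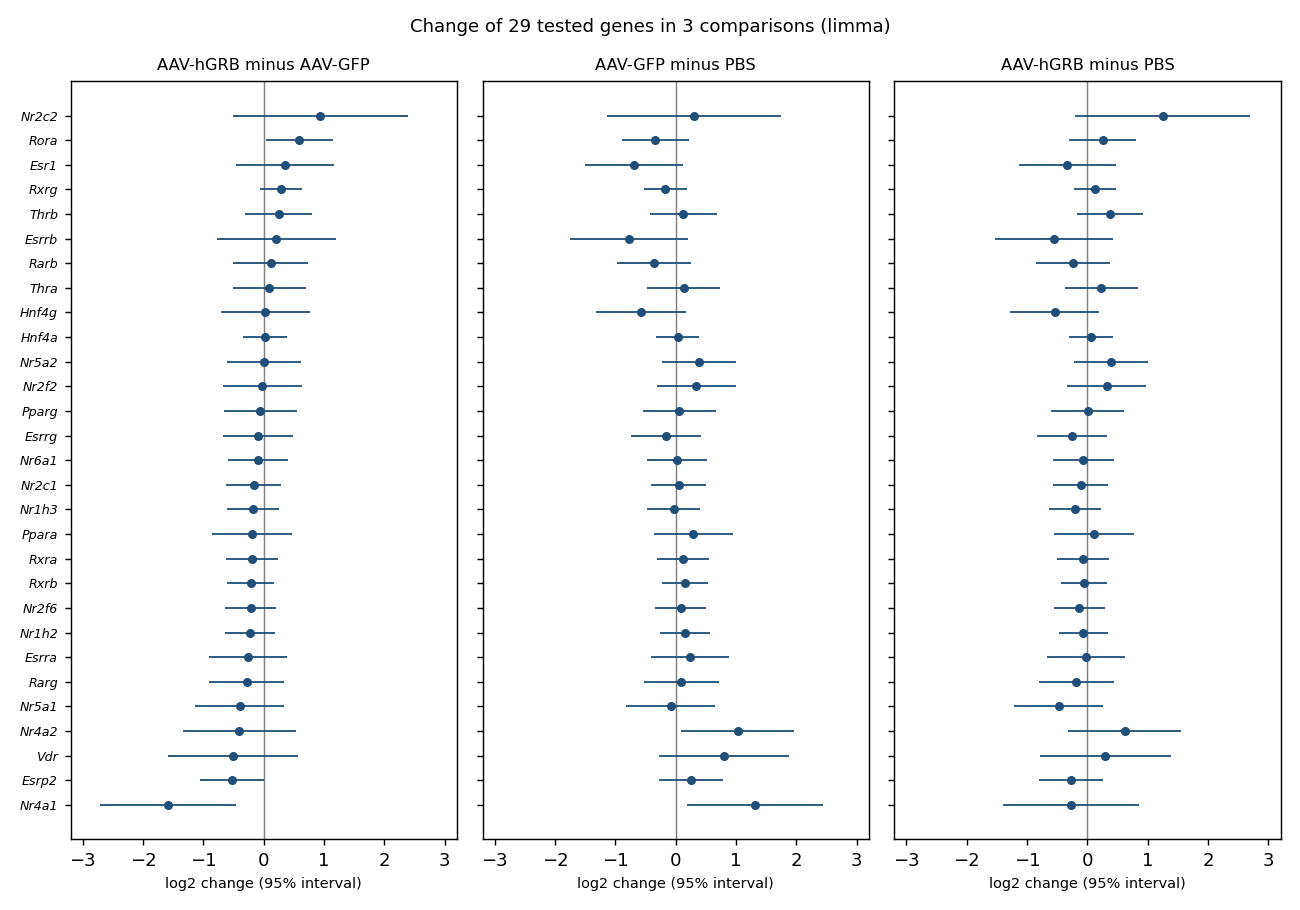
Changes of 29 of the 30 tested genes (vertical axis) on the log2 scale (horizontal axis) for the 3 comparisons, from the limma fit, with 95% intervals (lines). Most intervals span 0, and Nr4a1 has the lowest value in AAV-hGRB minus AAV-GFP, −1.59, and the highest in AAV-GFP minus PBS, 1.32.

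The RXR partners, with which LXR, PPAR, thyroid, retinoic acid and vitamin D receptors pair, were close between groups. Rxra, the main RXR of liver, was at 6.85, 6.71, 6.47 and 6.34 in the 4 AAV-hGRB samples, 6.47, 6.69, 7.20 and 6.78 in AAV-GFP and 6.68, 6.61, 6.79 and 6.55 in PBS. These groups overlapped, and AAV-hGRB minus AAV-GFP was −0.19 (SE 0.20, 95% interval −0.62 to 0.24, leave-one-out range −0.30 to −0.06). A second Rxra probe gave −0.20. Rxrb had a difference of −0.22 on its standing probe and 0.15 on the other. Rxrg, known mainly from muscle and brain, was at 1.65, 1.70, 1.76 and 1.41 in AAV-hGRB, 1.52, 1.29, 1.30 and 1.25 in AAV-GFP and 1.54, 1.38, 1.52 and 1.60 in PBS. Only the lowest AAV-hGRB sample fell within the AAV-GFP range, and the difference was 0.29 (SE 0.16, limma unadjusted p = 0.100, adjusted p = 0.998).

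Among the fatty acid receptors, Ppara, the activator of hepatic fatty acid oxidation, was at 4.92, 4.59, 4.63 and 4.75 in AAV-hGRB, 4.90, 4.74, 5.57 and 4.43 in AAV-GFP and 5.05, 4.34, 5.13 and 3.93 in PBS. PBS samples spread most and the groups overlapped. The differences were −0.19 (SE 0.30, leave-one-out range −0.35 to 0.0303) for AAV-hGRB minus AAV-GFP and 0.11 (SE 0.30) for AAV-hGRB minus PBS. Pparg, the adipogenic receptor, differed by −0.06 and 0.01. Ppard was not tested, being well above background on 2 arrays.

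Of 23 PPARα target genes listed from textbook knowledge, 0 passed the threshold in any comparison, and 3 had a positive and 20 a negative difference for AAV-hGRB minus AAV-GFP, with a median of −0.32 against −0.05 for all probes. The same list gave a median of 0.01 for AAV-GFP minus PBS and −0.34 for AAV-hGRB minus PBS. This and the other lists were computed under the main scaling only. Under quantile normalization, AAV-hGRB minus AAV-GFP rose to 0.04 for Rxra, −0.02 for Ppara and 0.01 for Nr1h3. It fell to 0.32 for Esr1 and 0.83 for Nr2c2. How far the list values depend on scaling was not tested. Angptl4, an inhibitor of lipoprotein lipase, was at 6.17, 6.81, 5.74 and 6.20 in AAV-hGRB, 6.99, 7.09, 7.41 and 7.53 in AAV-GFP and 5.84, 6.26, 6.91 and 5.59 in PBS. The AAV-GFP samples were the highest, and AAV-hGRB minus AAV-GFP was −1.02 (SE 0.31, limma adjusted p = 0.998). Acaa1b, a peroxisomal thiolase, differed by −0.62 in that comparison and by −0.60 from PBS. Pdk4, which restrains glucose oxidation, differed in the other direction from AAV-GFP, by 0.50.

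The sterol receptors Nr1h3 (LXRα) and Nr1h2 (LXRβ) both had slightly lower means in AAV-hGRB. Nr1h3 was at 4.28, 4.57, 4.54 and 4.52 in AAV-hGRB, 4.52, 5.05, 4.21 and 4.82 in AAV-GFP and 4.70, 4.56, 4.67 and 4.81 in PBS. The groups overlapped, and the differences were −0.17 (SE 0.20, leave-one-out range −0.32 to −0.04) from AAV-GFP and −0.21 (SE 0.20) from PBS. Nr1h2 differed by −0.23 and −0.07. Of 16 LXR target genes, 0 passed the threshold, 8 had positive and 8 negative differences from AAV-GFP, and the median was −0.00. For AAV-hGRB minus PBS 4 were positive and 12 negative (median −0.16), and for AAV-GFP minus PBS 5 and 11 (median −0.10). The cholesterol exporter Abcg1 was at 0.32 and the fatty acid synthase gene Fasn at −0.37 for AAV-hGRB minus AAV-GFP.

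The xenobiotic receptors Nr1i2 (PXR) and Nr1i3 (CAR) lie outside the naming rule and are given for comparison. Nr1i2 averaged 3.79 ± 0.37 with AAV-hGRB, 4.22 ± 0.40 with AAV-GFP and 4.09 ± 0.30 with PBS (SD, n = 4). Its difference from AAV-GFP was −0.43 (SE 0.26, leave-one-out range −0.61 to −0.24), and that of Nr1i3 was −0.12 (SE 0.30, leave-one-out range −0.22 to 0.11). Of 24 measured PXR and CAR targets, 0 passed the threshold and 14 had positive and 10 negative differences from AAV-GFP. The glutathione transferases Gsta1 and Gsta2, near-identical genes whose probes may share signal, gave the 2 highest values of the list, 1.48 and 1.53.

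Hnf4a had one of the smaller standard errors. This gene, required for hepatocyte identity, was at 3.94, 3.71, 3.82 and 3.66 in AAV-hGRB, 3.60, 3.82, 3.88 and 3.72 in AAV-GFP and 3.89, 3.67, 3.83 and 3.50 in PBS. All 3 ranges overlapped, and the difference from AAV-GFP was 0.03 (SE 0.17, 95% interval −0.34 to 0.39, leave-one-out range −0.026 to 0.0671). The other Hnf4a probes gave 0.19 and −0.20. Hnf4g, its paralog, was at −2.49, −1.86, −2.60 and −1.64 in AAV-hGRB, −1.46, −2.12, −2.41 and −2.69 in AAV-GFP and −1.05, −1.28, −1.89 and −2.18 in PBS. Its differences were −0.57 (SE 0.34) for AAV-GFP minus PBS and −0.54 for AAV-hGRB minus PBS (leave-one-out range −0.74 to −0.36, the latter without PBS replicate 1), with overlapping groups, and normexp gave −0.30 and −0.15. With slide as a block the first was −0.21, and with array weights −0.86. Of 22 measured HNF4α targets, 0 passed the threshold, and the median difference from AAV-GFP was −0.09. Tat, tyrosine aminotransferase and also a glucocorticoid-induced gene, was at −0.75.

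Nr5a2 (LRH-1), an activator of bile acid synthesis genes, was at 4.05, 3.59, 3.47 and 3.09 in AAV-hGRB, 3.47, 3.20, 4.23 and 3.24 in AAV-GFP and 2.95, 2.85, 3.50 and 3.31 in PBS. AAV-hGRB and AAV-GFP had nearly the same mean, with a difference of 0.01 (SE 0.28, leave-one-out range −0.16 to 0.24). Both means were above that of PBS, by 0.40 and 0.39 (SE 0.28 each), with overlap. In AAV-GFP only replicate 3, at 4.23 on the dimmest array, lay above the highest PBS sample, 3.50. In AAV-hGRB the samples at 4.05 and 3.59 did. No leave-one-out range is given for Nr5a2 against PBS, so how far these differences rest on single samples was not tested for Nr5a2. Its paralog Nr5a1 (SF-1), the steroidogenic factor of adrenal and gonad, was at −2.51, −1.98, −2.89 and −2.85 in AAV-hGRB and −1.66, −2.02, −1.89 and −2.75 in PBS, a difference of −0.48 (SE 0.34). The second Nr5a1 probe was not well above background on any array. Normexp background correction gave −0.11 for the same difference. Of the 6 adrenal cortex markers on the array, Cyp11a1 and Cyp11b2 were on 0 arrays, Star on 10, and Cyp21a1, Hsd3b1 and Mc2r on 12. The summed level of the 4 measured ones ranged from −0.96 to −0.10 in AAV-hGRB, −0.61 to 0.20 in AAV-GFP and −0.39 to 0.12 in PBS, and their part in the Nr5a1 values was not tested. Nr6a1, a germ cell receptor, differed by −0.09 from AAV-GFP.

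Among the ROR receptors, Rora, an activator of clock and lipid genes, had the second lowest p in AAV-hGRB against AAV-GFP. Its standing probe was at 0.84, 0.71, 0.96 and 1.07 in AAV-hGRB, 0.97, 0.20, −0.27 and 0.33 in AAV-GFP and 0.95, 0.53, 0.30 and 0.80 in PBS. The AAV-hGRB samples were close together and 1 AAV-GFP sample lay among them. The difference was 0.59 (SE 0.26, 95% interval 0.03 to 1.15, limma unadjusted p = 0.040, adjusted p = 0.998), with a leave-one-out range of 0.40 to 0.81. Of the 12 genes with several tested probes, Rora was one of 6 whose probes agreed in sign in that comparison, and its other probes gave 0.50 and 0.55. All its probes were read on the same samples, and the first and second lie close together in the RefSeq transcript. Under normexp the standing probe gave 0.50 (limma unadjusted p = 0.069) and the third probe 0.25. On the 2 slides that held both groups the difference of the standing probe was 0.64 and 1.24, 1 array a group. Against PBS the 3 probes gave 0.25, 0.29 and 0.57. On the third probe AAV-hGRB (−3.78, −3.73, −3.49 and −3.45) did not overlap PBS (−4.38, −4.32, −4.06 and −3.98), with limma unadjusted p = 0.064 and adjusted p = 0.866. On the other Rora probes these groups overlapped, and they did not overlap in 4.59% of all probes. The third probe was well above background on only 2 PBS arrays and 2 AAV-GFP arrays. Normexp gave 0.36 for its difference from PBS. Of 9 measured ROR targets, 0 passed the threshold and the median difference from AAV-GFP was 0.01.

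The thyroid hormone receptors showed how far probes of 1 gene can differ. Thrb (TRβ), the main thyroid hormone receptor of liver, was at 1.55, 2.06, 1.17 and 1.31 in AAV-hGRB, 1.63, 1.18, 0.75 and 1.56 in AAV-GFP and 0.95, 1.35, 1.27 and 1.02 in PBS on its standing probe, designed from a cDNA. The groups overlapped, with differences of 0.25 (SE 0.25, leave-one-out range 0.0663 to 0.36) from AAV-GFP and 0.38 (SE 0.25, leave-one-out range 0.20 to 0.49) from PBS. The other probes gave −0.47 and 0.48 from AAV-GFP and −0.70 and 0.29 from PBS. Thra (TRα) differed from AAV-GFP by 0.10 and 0.35 on its 2 probes. Vdr had wide intervals, with 0.80 (95% interval −0.28 to 1.88) for AAV-GFP minus PBS, where 1 PBS sample at −6.63 lay far below the rest. Of 13 thyroid hormone targets, 0 passed the threshold and the median difference from AAV-GFP was −0.08.

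The retinoic acid receptors Rarb and Rarg were tested. Rarb averaged −0.30 ± 0.50 with AAV-hGRB, −0.42 ± 0.33 with AAV-GFP and −0.06 ± 0.37 with PBS (SD, n = 4), and Rarg differed from AAV-GFP by −0.28 and −0.16 on its 2 probes. Of 8 measured retinoic acid targets, 0 passed the threshold, with a median difference of 0.13. Cyp26b1, which degrades retinoic acid, was 0.60 above AAV-GFP and 0.96 above PBS (SE 0.45).

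The oestrogen receptor Esr1 was at 0.90, −0.11, −0.10 and 0.19 in AAV-hGRB, −0.33, −0.67, 0.76 and −0.31 in AAV-GFP and 0.87, −0.32, 0.70 and 0.94 in PBS. One AAV-GFP sample lay with the higher PBS samples and 1 PBS sample with the lower AAV-GFP samples. AAV-GFP minus PBS was −0.69 (SE 0.37, limma unadjusted p = 0.089, adjusted p = 0.999), and AAV-hGRB minus AAV-GFP was 0.35, with a leave-one-out range of 0.13, without AAV-hGRB replicate 1, to 0.65, without AAV-GFP replicate 3. The orphan Esrra, which partners PGC-1α in mitochondrial gene control, differed from AAV-GFP by −0.27, and its second probe by 0.48. Esrrb, near background, was at −4.34, −4.87, −4.41 and −3.63 in AAV-hGRB, −4.14, −3.44, −5.47 and −5.06 in AAV-GFP and −3.19, −4.63, −3.72 and −3.48 in PBS. It was well above background on 2 arrays of each group, and AAV-GFP minus PBS was −0.77 (SE 0.45). That value was −0.12 under normexp, −0.31 with array weights, −0.41 with slide as a block and −0.46 without AAV-GFP replicate 3. Esrrg differed from AAV-GFP by −0.09 and 0.57 on its 2 probes.

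**Figure D2:**
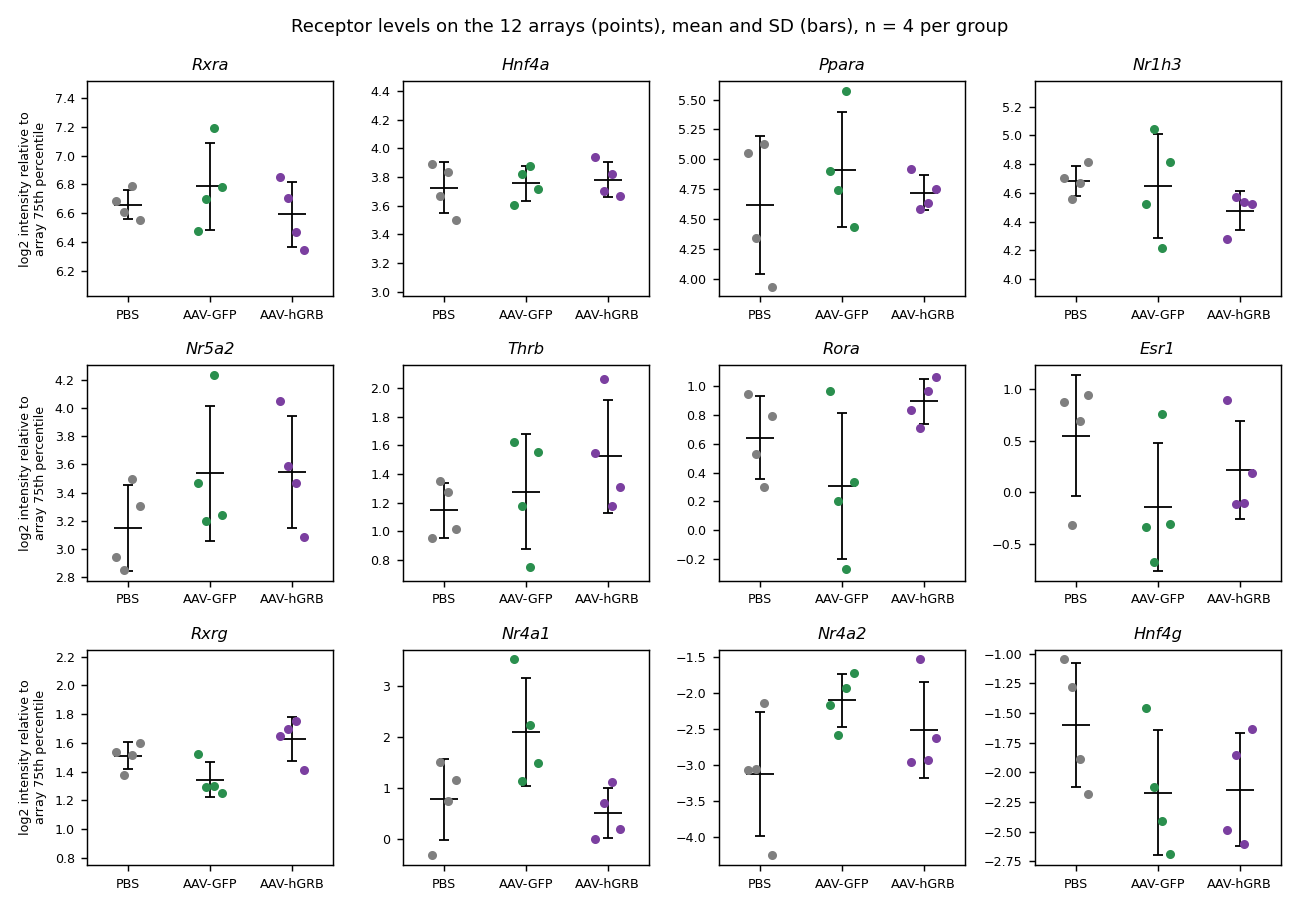
Levels of 12 receptors in PBS, AAV-GFP and AAV-hGRB samples (points), as log2 intensity relative to the array's 75th percentile (vertical axis, a different range in each panel), with group mean and SD (bars, n = 4). The groups overlap in every panel except AAV-hGRB and AAV-GFP for Nr4a1, where the AAV-hGRB samples reach 1.11 and the AAV-GFP samples start at 1.14.

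Among standing probes, Nr4a1 had the widest difference of AAV-GFP from each of the other groups. Nr4a1 (NUR77), an early response gene induced by glucagon through cAMP, was at 0.01, 0.72, 1.11 and 0.21 in AAV-hGRB, 3.53, 1.14, 2.24 and 1.50 in AAV-GFP and −0.32, 1.52, 0.75 and 1.16 in PBS. All 4 AAV-GFP samples lay above all 4 AAV-hGRB samples, by 0.03 at the nearest pair, and 2 of them lay above every PBS sample. AAV-hGRB minus AAV-GFP was −1.59 (SE 0.52, 95% interval −2.72 to −0.47, limma unadjusted p = 0.00948, adjusted p = 0.998). AAV-GFP minus PBS was 1.32 (SE 0.52, limma unadjusted p = 0.025, adjusted p = 0.999), and AAV-hGRB minus PBS −0.27 (SE 0.52). The first and second of these rest on the same AAV-GFP samples. On the 2 slides holding AAV-hGRB and AAV-GFP the difference was −1.13 on each, and on the 3 slides holding AAV-GFP and PBS it was 2.01, −0.02 and 1.49. Without AAV-GFP replicate 1, the sample at 3.53, the first difference was −1.11 and the second 0.85, and with array weights the second was 0.74.

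Nr4a2 (NURR1), the paralog with the other promoter shown above, was at −2.95, −1.53, −2.93 and −2.63 in AAV-hGRB, −2.17, −2.59, −1.93 and −1.73 in AAV-GFP and −3.07, −3.06, −2.15 and −4.25 in PBS. All 4 AAV-GFP samples lay above 3 of the 4 PBS samples, and the difference was 1.03 (SE 0.43, limma unadjusted p = 0.034, adjusted p = 0.999). It was 0.65 without PBS replicate 4, the sample at −4.25, and 0.48 under normexp. AAV-hGRB minus AAV-GFP was −0.41 (SE 0.43) and AAV-hGRB minus PBS 0.62, so in its mean AAV-hGRB lay between the others. The last value had a leave-one-out range of 0.25, without PBS replicate 4, to 0.95, without PBS replicate 3, and was 0.25 with slide as a block. Nr4a3 was on no array well above background. The difference between the changes of Nr4a1 and Nr4a2 was not tested.

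A list of 17 immediate early genes, which share rapid induction with Nr4a1, was chosen after its values were seen. In that list 0 passed the threshold in any comparison, and the medians were −0.03, 0.23 and 0.07 for the 3 comparisons. Fos was at −1.16 and Jun at −0.78 for AAV-hGRB minus AAV-GFP, whereas Egr1 was at 0.61 and Egr2 at 0.85. G6pc, the glucose-6-phosphatase gene that is also a NR4A, ROR and thyroid hormone target, was at −1.38 in that comparison and 1.29 for AAV-GFP minus PBS, with limma adjusted p = 0.998 and 0.999. Kupffer cell and macrophage markers, another source of Nr4a1 RNA, had positive differences in 10 of 10 genes, with a median of 0.31, for AAV-hGRB minus AAV-GFP. Over all probes tested, 43.5% were positive in that comparison, 50.6% for AAV-GFP minus PBS and 42.8% for AAV-hGRB minus PBS. The macrophage markers were also positive in 9 of 10 genes for AAV-GFP minus PBS, with a median of 0.17. For AAV-hGRB minus PBS these markers were positive in 10 of 10, with a median of 0.46. Their summed level ranged from 7.06 to 8.19 in AAV-hGRB, 6.97 to 7.97 in AAV-GFP and 6.18 to 7.78 in PBS, and none was on 0 arrays. Of 11 measured T and NK cell markers, 8 had positive and 3 negative differences of AAV-hGRB from AAV-GFP, with a median of 0.53. A limma unadjusted p under 0.05 was reached by 4 of them, against 3.35% of all probes. Their summed level was 2.35 to 3.81 in AAV-hGRB, 1.90 to 2.76 in AAV-GFP and 1.57 to 2.70 in PBS. Of 5 measured neutrophil markers, all were lower in AAV-GFP than in PBS, with differences of −1.30 to −0.09, whereas 50.6% of all probes were higher. A limma unadjusted p under 0.05 was reached by 4 of the 5, against 1.68% of all probes. The neutrophil median of AAV-hGRB minus AAV-GFP was 0.75. Their summed level was 2.09 to 3.22, 0.69 to 2.56 and 2.71 to 3.17 in AAV-hGRB, AAV-GFP and PBS. The part of these cells in the Nr4a1 values was not tested.

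The orphans of the NR2 family included the widest spread between probes. Nr2c2 (TR4), a repressor and activator of lipid genes, had its standing probe, from an unclassified cDNA, at 0.63, −0.74, −0.94 and −1.48 in AAV-hGRB, −0.90, −3.64, −0.20 and −1.56 in AAV-GFP and −1.83, −1.76, −1.19 and −2.73 in PBS. All 4 AAV-hGRB samples lay above 3 of the 4 PBS samples, with a difference of 1.25 (SE 0.67) from PBS and 0.94 (SE 0.67) from AAV-GFP. Without AAV-hGRB replicate 1 these were 0.82 and 0.52, without AAV-GFP replicate 2 the second was 0.25, and with slide as a block they were 1.95 and 1.63. The slide values rest mainly on the slides that held AAV-hGRB beside another group. The second probe, from the RefSeq transcript, was at −3.31, −3.68, −3.29 and −3.52 in AAV-hGRB and −3.36, −3.88, −4.65 and −4.78 in PBS, a difference of 0.72 (SE 0.30, limma unadjusted p = 0.032, adjusted p = 0.837). The second probe was well above background on 9 arrays, with only 2 PBS arrays among them. Under normexp the difference from PBS was 0.37 on the second probe and 0.91 on the standing probe. Both probes, read on the same samples, agreed in sign in all 3 comparisons.

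Nr2c1 (TR2), the partner of Nr2c2, shows the effect of the choice of probe. The first 30 of the 60 bases of each probe are given because the probes of the 2 genes disagree in spread.
Nr2c1 probe 1: aagagttgttcttcaaaggtctcattggca
Nr2c1 probe 2: gtttgtcaactgtcttcacagtagccttca
Nr2c1 probe 3: cctgcttttccatgttagctattttaataa
Nr2c2 probe 1: taggcagcatgatgtgtagaggggatatag
Nr2c2 probe 2: ggagaaggcacagatggaattacaggacta
Probes 1 and 2 of Nr2c1, both from the RefSeq transcript, differed from AAV-GFP by −0.17 and −0.15 in AAV-hGRB. Probe 3, from an unclassified cDNA with 23.3% G and C, was at −1.19, −2.57, 1.84 and −3.13 in AAV-hGRB, −2.79, −5.32, −1.34 and −3.67 in AAV-GFP and −3.36, −3.09, −2.54 and −2.72 in PBS. Its difference from AAV-GFP was 2.02 (SE 1.00), and 0.98 without AAV-hGRB replicate 3, the sample at 1.84, 1.34 without AAV-GFP replicate 2, the sample at −5.32, 1.04 under normexp and 3.49 with slide as a block. The slide value rests mainly on the slides that held both groups, where the difference was 4.13 and 3.18. Each of those slides held a single array of each group. Its range over the 12 arrays, 7.16 log2 units, was the widest of the 47 tested probes. The 39 probes designed from RefSeq transcripts had a median range of 1.34, and the 8 from other cDNAs one of 1.62. Nr2f2 (COUP-TFII) differed from AAV-GFP by −0.02 on its standing probe and by −0.25 and −0.18 on its other probes. Nr2f6 differed by −0.22.

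**Figure D3:**
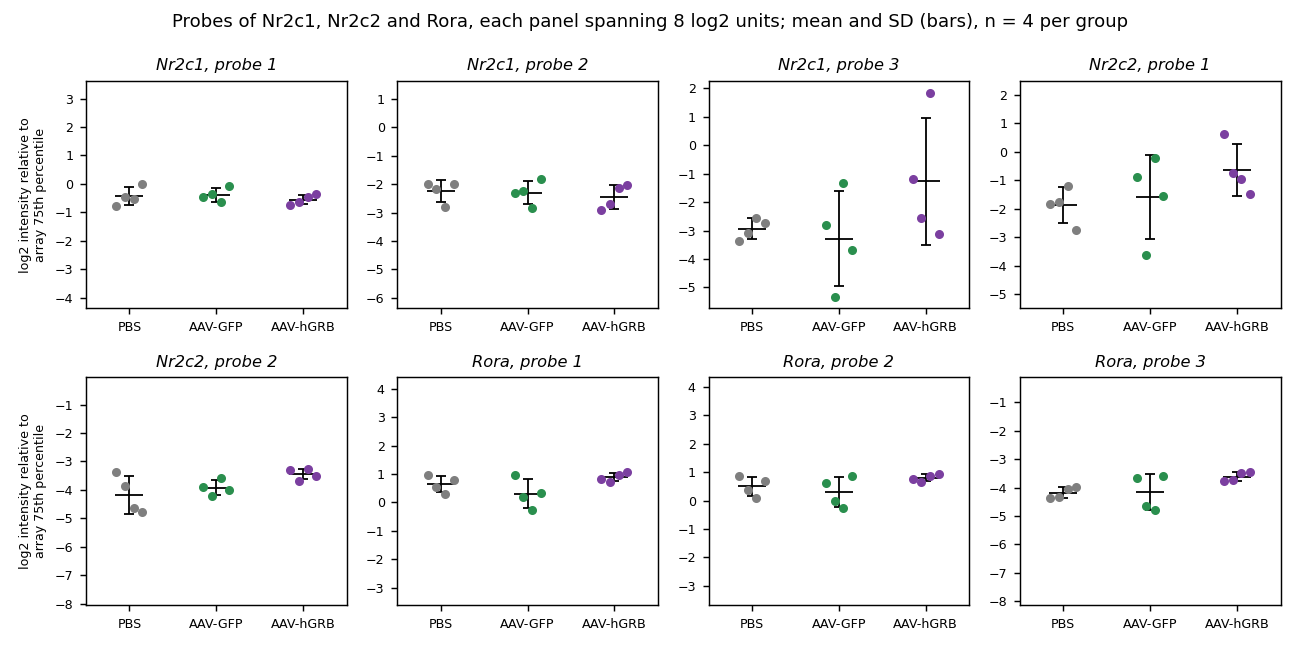
Levels of the probes of Nr2c1, Nr2c2 and Rora on the 12 arrays (points), as log2 intensity relative to the array's 75th percentile (vertical axis, 8 log2 units in each panel), with group mean and SD (bars, n = 4). Probe 3 of Nr2c1 ranges over 7.16 units, whereas probes 1 and 2 stay close in all groups, and the 3 Rora probes have a higher AAV-hGRB than AAV-GFP mean.

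The splicing regulator Esrp2, matched by its letters only, was at 3.66, 3.71, 3.46 and 3.70 in AAV-hGRB, 3.60, 3.85, 4.40 and 4.78 in AAV-GFP and 3.87, 3.71, 4.03 and 3.99 in PBS. AAV-hGRB did not overlap PBS, but only narrowly, with its highest sample at 3.706 and the lowest PBS sample at 3.710. The difference from PBS was −0.27, and that from AAV-GFP was −0.53 (SE 0.24, limma unadjusted p = 0.052, adjusted p = 0.998). Without AAV-GFP replicate 4, the one array scanned on the second day, that difference was −0.32. The cholangiocyte markers, an epithelium that also expresses it, had a summed level of 4.68 to 6.90 in AAV-hGRB, 4.58 to 6.38 in AAV-GFP and 4.90 to 5.51 in PBS, with a median difference of −0.87 over 7 genes for AAV-hGRB minus AAV-GFP. Their part in the Esrp2 values was not tested.

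The coregulators through which receptors act gave medians near 0. Of 20 coactivators, 0 passed the threshold in any comparison, and the median difference of AAV-hGRB from AAV-GFP was 0.05, with Ppargc1a (PGC-1α) highest at 0.47 and Pprc1 lowest at −0.39. Of 13 corepressors, 0 passed, and the median was 0.01, with Ncor1 at −0.13. Of 26 measured genes that make, bind or remove receptor ligands, 0 passed, and the median was −0.12. Aldh1a2, which makes retinoic acid, had the lowest value, −0.77.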

How the data were processed

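Total RNA of 12 liver samples was labelled with Cy3 and hybridised to 12 one-colour Agilent arrays on 6 slides, scanned on 2 days. Spot intensity, the processed signal as deposited, was made by the authors with Agilent Feature Extraction 9.5 per the submitters' processing notes (9.5.3.1 per the file headers), which subtracts local background and detrends within an array. The deposited value table holds the same intensities. Values for control spots were left out. A spot flagged as an outlier was left out only where another spot of its probe remained, and 245 of 41174 probes had several spots. Log2 was taken, spots of a probe averaged and each array's 75th percentile subtracted, so a global change in RNA amount would not show. A probe counted as well above background by the file's own flag in at least 50% of its spots, and was tested if so on at least 4 arrays. Probe positions follow the mouse build of the array design, and names follow RefSeq symbols where accessions matched (22951 of 41174 probes).

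The 3 groups entered one limma 3.58.1 fit (R 4.3.3) with 9 residual degrees of freedom, two-sided, with Benjamini-Hochberg adjustment over 26592 probes. The code was tested on simulated data. The number of arrays, 4 a group, limits the precision. Named genes were 10 well-known liver receptors and the 5 genes of lowest p in each comparison. Members and lists were chosen with earlier results of these data known. Same-numbered replicates did not deviate together (12 pairs, correlations −0.43 to 0.59, median −0.02), so numbers were not used for pairing. Alternatives covered scaling, background, filters, slide, replicate number, array weights, probes and left-out replicates. With slide as a block, slides that held only one group add nothing to a difference between groups. Columns of other samples numbered 0. Of the 30 tested genes, 1 is not reported by name here, nor is 1 corepressor.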

Additional observations from a re-analysis of the deposited data

Results flagged for a closer look

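In 54 groups of 4 samples, 2 held a sample far from its neighbours by Dixon's test at its 95% critical value (3.7%, where chance gives about 5%). Nr1h3 in AAV-hGRB replicate 1 was at 4.28, whereas the other 3 samples lay between 4.52 and 4.57. Nr1i3 in AAV-hGRB replicate 2 was at 2.42, whereas the other 3 lay between 3.28 and 3.40.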

How the results depend on the processing

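For 24 gene changes, 551 values under 24 alternatives were computed; 535 kept their sign, 16 turned, 0 newly passed the threshold, and 17 changes kept their sign under every alternative run. No tested probe of a matched gene was called by limma under any alternative, the lowest adjusted p being 0.170, for a Thrb probe in AAV-hGRB against PBS with array weights (0.247 over standing probes). Array weights called 67 probes in AAV-hGRB against PBS where the main analysis called 0 (1553 at unadjusted p under 0.05), and the cause was not tested. Among the values that turned sign for AAV-hGRB minus AAV-GFP were Rxra at 0.0429 and Nr1h3 at 0.00781 under quantile normalization. Others were Hnf4a at −0.11 and Nr5a2 at −0.14 under normexp, Nr5a2 at −0.0107 with slide as a block, and Ppara at 0.0389 under array weights. Thrb was −0.0109 from PBS as the mean of all its probes, against 0.38 on its standing probe. Leaving out 1 sample in turn gave −0.026 to 0.0671 for Hnf4a, −0.16 to 0.24 for Nr5a2, −0.35 to 0.0303 for Ppara and −0.22 to 0.11 for Nr1i3. Normexp moved the median change of all probes from −0.05 to 0.05 in AAV-hGRB against AAV-GFP and from −0.06 to 0.06 in AAV-hGRB against PBS. With the replicate block, 0 probes were called in each comparison. The number of arrays and, for dim probes, the signal over background limit what could be detected.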
